A study of Homo sapiens with 2 samples.

Results

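Rab GTPases, the small GTP-binding proteins that direct membrane traffic, were compared between 2 human gastric cancer cell lines, MKN45 and MKN45P, a highly metastatic line related to it as its derivative. The Rab genes were taken as every gene whose single annotated symbol on the exon array was RAB, a number and at most 1 letter from A to F. This gave 61 of 18923 named genes, read by 613 of the 286871 probesets (small groups of probes, usually placed in 1 exon) that carry exactly 1 symbol. Both lines are epithelial tumour lines grown in the same serum-supplemented medium, harvested with trypsin and untreated, and 1 array of total RNA was made from each. The labels do not say whether either line is a clone. With 1 array per line there was no replicate and the lines could not be tested against each other. Every difference below is one between these 2 arrays. In RNA from a whole culture, a change in every cell and a change in the share of cells that express a gene cannot be told apart.

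Rab proteins cycle between a GDP-bound form held in the cytosol and a GTP-bound form on a membrane. Exchange factors load them with GTP, GTPase-activating proteins switch them off, and effectors such as tethers and motors bind the active form. Each Rab marks its own compartment, so that secretory Rabs act between the endoplasmic reticulum, the Golgi and the cell surface, and endocytic Rabs act on early, recycling and late endosomes. Epithelial cells, gastric ones among them, also use Rabs for polarised recycling and for the release of secretory granules.

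Of the 61 Rab genes 52 were measured, that is, had at least 4 probesets and a median level of 1.92 or more, which is the middle value of all probesets on the arrays. Levels are deposited log2 values, and a gene's difference is MKN45P minus MKN45, taken per probeset and then summarised by the median. The range in brackets is the interquartile range over probesets. The median of the differences need not equal the gap between the median levels of both lines, which are given beside it. RAB1C, RAB40A, RAB42 and RAB43 had fewer than 4 probesets. RAB3C, RAB9B, RAB39, RAB41 and RAB44 lay below the level filter, with line medians from 1.69 to 1.89 and differences from -0.15 to 0.07. Of the measured genes, RAB8B, RAB28, RAB30 and RAB39B had 1 line below the filter and RAB13 had both line medians below it. Values near the low end of the scale may be compressed, so differences there may understate any difference in RNA, which was not tested.

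Both arrays had close distributions, with medians over 877986 probesets of 1.93 in MKN45 and 1.91 in MKN45P. Of 6 epithelial markers 5 were measured, with line levels from 3.13 to 10.7. Their differences ran from -0.21 for the keratin KRT8 to 1.14 for the tight junction gene CLDN7. The marker not measured, the keratin KRT19, had 2 probesets, both lower in MKN45P. It read 6.36 in MKN45 and 5.60 in MKN45P, a difference of -0.76. The adherens junction gene CDH1 read 10.26 in MKN45 and 10.74 in MKN45P. Of 18 markers of immune, fibroblast and endothelial cells 8 were measured, at line levels from 1.87 to 2.86 and with differences from -0.16 to 0.12, near the low end in both lines.

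Promoter sequences are shown for members whose differences are described below, so that the motifs searched in them can be seen. RefSeq promoter windows (GRCh38.p14, from 250 bases before to 50 bases after a start site) were found for 46 of the current Rab symbols, in 66 windows, because some genes have several start sites. RAB27A had 5 of these. Its most upstream window lies at chr15:55319074-55319373 on the minus strand, and the window of RAB3B, the Rab gene with the lowest difference, at chr1:51990651-51990950 on the minus strand. Capitals mark a match to the core of the interferon-stimulated response element, searched as AAANNGAAA.
RAB27A: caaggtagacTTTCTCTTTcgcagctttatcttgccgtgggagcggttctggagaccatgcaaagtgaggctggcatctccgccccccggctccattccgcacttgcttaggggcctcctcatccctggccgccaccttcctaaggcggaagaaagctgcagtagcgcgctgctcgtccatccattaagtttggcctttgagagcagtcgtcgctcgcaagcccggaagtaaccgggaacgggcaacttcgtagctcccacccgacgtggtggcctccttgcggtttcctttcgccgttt
RAB3B: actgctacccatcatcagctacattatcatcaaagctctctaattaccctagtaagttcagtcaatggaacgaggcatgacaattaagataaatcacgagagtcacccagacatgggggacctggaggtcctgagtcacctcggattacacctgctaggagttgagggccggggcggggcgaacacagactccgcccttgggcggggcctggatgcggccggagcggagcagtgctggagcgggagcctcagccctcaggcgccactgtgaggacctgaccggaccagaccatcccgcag

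The E-box CACGTG, which is the core of the element bound by lysosomal gene regulators, was found in windows of RAB4A, RAB5A, RAB21, RAB24 and RAB31. Of these, 4 are endocytic Rabs and RAB24 acts in autophagy. They are shown as 46-base stretches on GRCh38.p14 with the motif in capitals, for RAB4A at chr1:229270989-229271034 (plus strand), RAB5A at chr3:19946956-19947001 (plus), RAB21 at chr12:71754823-71754868 (plus), RAB24 at chr5:177303724-177303769 (minus) and RAB31 at chr18:9708221-9708266 (plus).
RAB4A: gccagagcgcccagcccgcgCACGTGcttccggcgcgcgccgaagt
RAB5A: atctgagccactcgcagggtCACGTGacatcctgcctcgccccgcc
RAB21: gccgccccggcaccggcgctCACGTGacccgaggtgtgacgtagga
RAB24: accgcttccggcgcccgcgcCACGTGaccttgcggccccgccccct
RAB31: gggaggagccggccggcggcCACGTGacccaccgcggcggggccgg

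Both strands were searched in every window. CACGTG occurred in 7.58% of the 66 Rab windows and in 7.26% of all 35093 promoter windows. TGACGTG, the core bound by the unfolded protein factors XBP1 and ATF6, occurred in a downstream window of RAB27A and in that of RAB3A, 3.03% of Rab windows against 1.97% of all. The cyclic AMP response element TGACGTCA, which shares its opening bases with TGACGTG, occurred in the RAB25 window alone (1.52% against 1.85%), and AAANNGAAA in those of RAB6C, RAB19, RAB23 and RAB27A (6.06% against 10.5%). The genes with the E-box had differences from 0.20 in RAB4A to 0.78 in RAB21; of all measured Rab genes 69.2% were above 0, and of the endocytic ones 84.2%. A match is a run of letters only, and the shares in Rab windows rest on 1 to 5 windows per motif.

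Of the 52 measured Rab genes 4 passed 2-fold, and 36 (69.2%) lay within 0.5 log2 units of 0, where 79.6% of all measured genes did. RAB1A, the Rab of traffic from the endoplasmic reticulum to the Golgi, and RAB27A, which docks secretory granules, lysosome-related organelles and exosome-forming bodies at the plasma membrane, were at least 2-fold higher in MKN45P. RAB3B, a Rab of regulated exocytosis, and RAB15, which slows the return of receptors from endosomes, were at least 2-fold lower. The 2 higher members are 3.85% of the 52 measured Rab genes, where 4.58% of all 13130 measured genes were 2-fold higher. The 2 lower members are also 3.85%, where 1.2% of all measured genes were 2-fold lower. In either direction the shares were 7.69% of Rab genes and 5.78% of all genes. The 48 remaining measured Rab genes lay between -0.53 and 0.99 in log2 units, RAB2A at 0.99 being the nearest to the threshold from inside and RAB27A at 1.10 the nearest beyond it among the higher genes. Subtracting 1 line's median level from the other's gave 8 Rab genes 2-fold higher and 3 lower, and using only probesets with signal gave 5 higher and 2 lower. Under these settings the median of all measured genes was 0.069 and 0.087, against 0.031 in the main one. The shares of all genes given above are for the main setting only. With at least 10 probesets per gene, which leaves 30 Rab genes, 1 was higher and 1 lower.

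**Figure D1:**
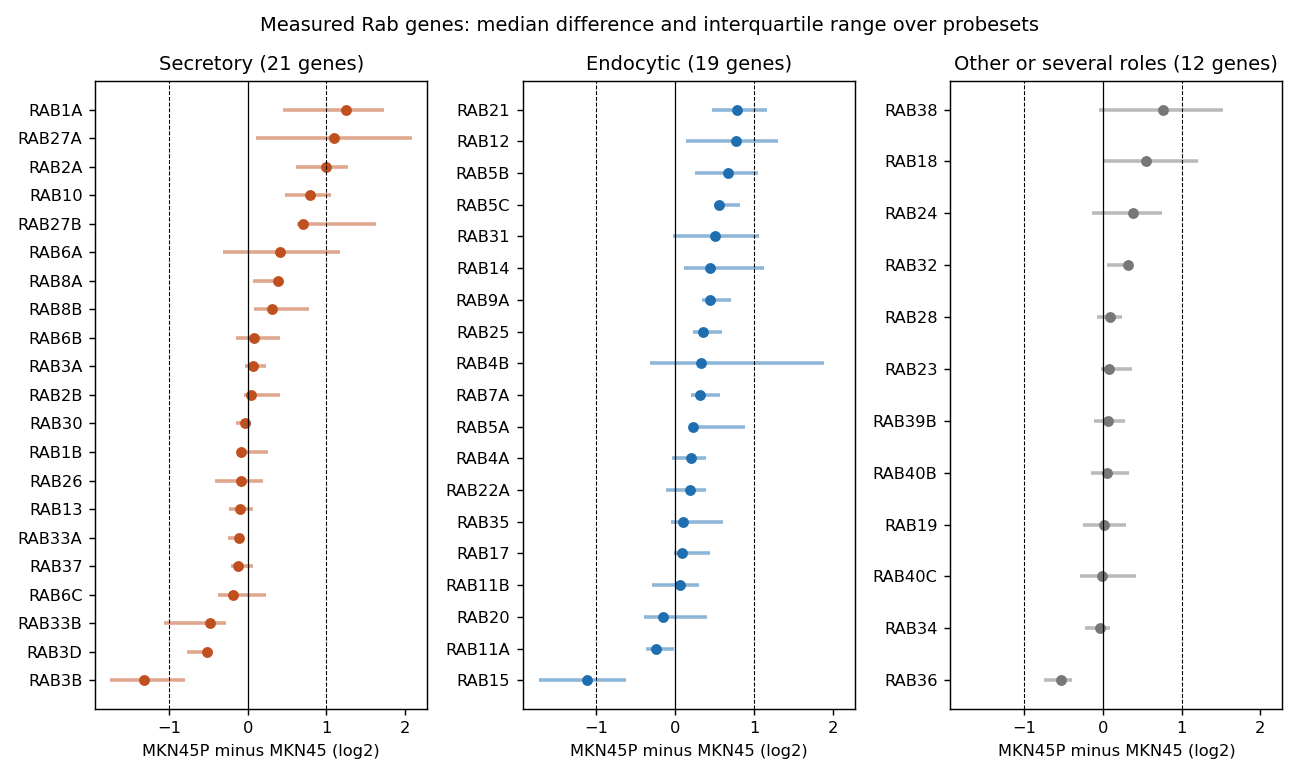
Difference between the lines for the 52 measured Rab genes, in log2 units on the horizontal axis, split by route into secretory, endocytic and other genes. Points are medians over a gene's probesets, bars the interquartile range over probesets within these 2 arrays, and dashed lines mark 2-fold; RAB1A and RAB27A lie beyond it on the higher side, RAB3B and RAB15 on the lower.

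RAB1A was higher in MKN45P at every one of its 7 probesets. Its line medians were 5.85 in MKN45 and 7.34 in MKN45P, and its difference was 1.25 (0.44 to 1.74). The probesets were not alike. Probeset 2556674 read 3.46 in MKN45 and 5.59 in MKN45P, and probeset 2556676 read 5.91 and 7.84. Probesets 2556679, with 9.61 and 10.12, and 2556682, with 9.72 and 10.09, differed less. Probeset 2556710 was level between the arrays, at 4.90 and 4.91. In all, 4 of the 7 passed 2-fold and the other 3 ranged down to 0.01.

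RAB1B, the close paralog of RAB1A with the same early secretory role, did not share the difference. Its line medians were 8.47 and 8.50 and its difference was -0.08 (-0.11 to 0.25), with 2 of 6 probesets higher and 4 lower in MKN45P. The pair thus stood 1.34 apart in log2 difference. Rab paralogs are near-identical in part, RAB1C and other copies included, so values of 1 gene may hold signal of another, which was not tested. RAB1C was read by 1 probeset (3.08 and 4.09), which is too few to describe it.

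RAB27A differed along its probesets. In order of identifier, its first 7 probesets were all higher in MKN45P, by 0.56 to 3.07 with a median of 2.004. The last 4 had a median of -0.24 and ranged from -0.39 to 0.29. Probeset 3625275 had the widest gap, at 3.28 in MKN45 and 6.36 in MKN45P, and 3625276 read 4.13 and 6.49. Probeset 3625303, among the last 4, read 10.17 in MKN45 and 9.77 in MKN45P. Over all 11 probesets the line medians were 2.42 and 4.01 and the difference was 1.10 (0.11 to 2.09), with 8 higher and 3 lower. Over the 7 probesets with signal, which means a level of 2.77 or more, the 75th percentile of all probesets, the difference was 2.004. The 2 stretches were set apart after their values were seen, and their places in transcripts were not used here.

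RAB27B, which acts beside RAB27A in granule and exosome release, was higher at all of its 7 probesets. Its line medians were 2.72 and 4.01 and its difference was 0.70 (0.62 to 1.62), under 2-fold. Probeset 3788985 read 3.25 in MKN45 and 5.27 in MKN45P, and 3788977 read 2.34 and 2.47. It passed 2-fold over its 6 probesets with signal (1.06), and also with the mean of the differences or the gap between line medians, so its side of 2-fold depends on the summary.

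RAB3B was lower in MKN45P at every one of its 8 probesets. Its line medians were 3.56 in MKN45 and 1.93 in MKN45P, and its difference was -1.32 (-1.74 to -0.80). The largest gap was at probeset 2412630, with 5.13 in MKN45 and 2.60 in MKN45P. Probeset 2412629 read 3.71 and 2.08, and 2412650 read 6.71 and 5.54. In MKN45P 5 of the 8 values, all but those of these 3 probesets, lay near the low end of the scale, from 1.73 to 1.95.

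RAB15 was lower in MKN45P at 21 of its 22 probesets, the most probesets of the 4 genes past 2-fold. Its line medians were 5.08 and 3.61 and its difference was -1.12 (-1.72 to -0.62), and 12 probesets passed 2-fold. Probeset 3568655 read 6.67 in MKN45 and 3.95 in MKN45P, 3568625 read 5.94 and 3.64, and 3568626 read 9.64 and 8.42. Probesets at the low end in both arrays, such as 3568620 (1.61 and 1.56), showed almost no gap, as did 3568652 at 2.59 and 2.58.

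**Figure D2:**
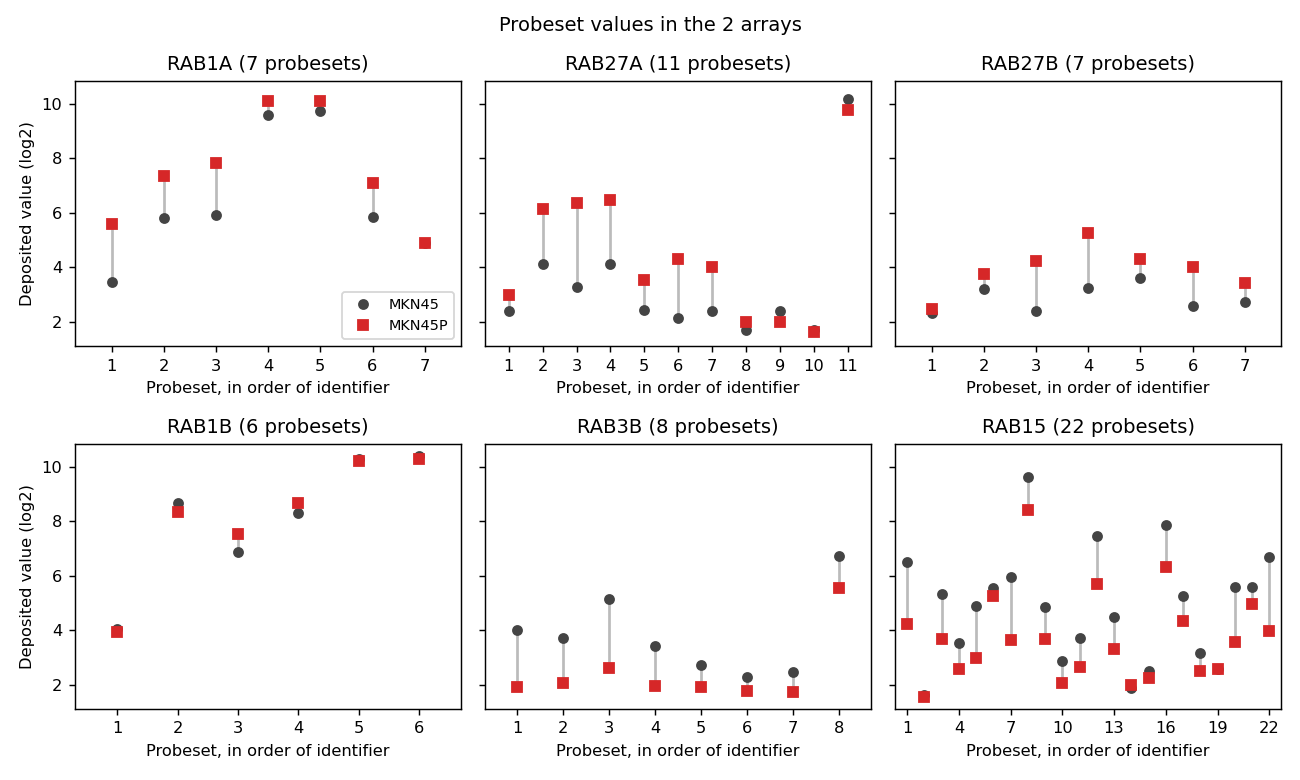
Deposited log2 value of each probeset in MKN45 (dark circles) and MKN45P (red squares), in order of probeset identifier, for RAB1A, RAB27A, RAB27B, RAB1B, RAB3B and RAB15. RAB1A and RAB27B are higher in MKN45P throughout, RAB27A only in its first 7 probesets and probeset 8, RAB3B is lower throughout and RAB1B shows both signs.

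Secretory Rab genes, taken as those of the endoplasmic reticulum and Golgi and those of exocytosis, lay on both sides of 0. Of the 21 measured, 11 (52.4%) were above 0, where 54.9% of all measured genes were, and 10 were below, with a median of 0.04 (interquartile range over genes -0.11 to 0.41). In the group of the endoplasmic reticulum and Golgi, 5 of 10 were above 0 and the median was 0.0062. RAB2A, which acts with RAB1A in early secretion, came next after RAB1A, with levels of 5.14 and 6.36 and a difference of 0.99 (0.61 to 1.28); 11 of its 12 probesets were higher. Its paralog RAB2B differed by 0.04 (2.93 and 3.23). RAB6A, which runs traffic within and back through the Golgi, was at 0.41 with a range across 0 (-0.32 to 1.18), 4 probesets higher and 4 lower. Over its 5 probesets with signal, 2575698 among them, it was at 0.83. Probesets 2575696, 2575697 and 2575698, all lower in MKN45P, have identifiers far from those of its others, 3381609 to 3381657. Of the others, 3381654 was lower (-0.42), and 3381609, 3381610, 3381637 and 3381657 were higher by 1.14, 1.28, 2.36 and 0.83. Whether 2575696, 2575697 and 2575698 read RAB6A was not checked, and its place within 2-fold rests on them. RAB6B was at 0.08, but at -0.44 over its probesets with signal. RAB6C, a gene very like RAB6A, was at -0.19 (-0.38 to 0.24; 2.50 and 2.10). The 1 probeset with signal annotated to RAB6C, 3340011, went the other way, at 8.82 in MKN45 and 9.80 in MKN45P. Its identifier is far from those of the other RAB6C probesets, 2505294, 2505302 and 2505303, which read from 1.85 to 2.56. Whether 3340011 reads RAB6C was not checked. RAB30, another Golgi Rab, was at -0.03 and RAB33A at -0.11. RAB33B, a Golgi Rab that also acts in autophagy, was lower at all of its 5 probesets, with levels of 4.44 and 3.16 and a difference of -0.48 (-1.06 to -0.27). RAB43 had 3 probesets with differences of 2.22, 0.22 and -0.47 and was not counted.

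Among Rabs of exocytosis 6 of 11 were above 0, and the median was 0.07. After RAB27A the highest was RAB10, which carries vesicles from the Golgi and recycling endosomes to the basolateral surface, with levels of 7.55 and 8.62 and a difference of 0.79 (0.47 to 1.06); 13 of its 14 probesets were higher. RAB8A, a Rab of apical delivery and cilia, was at 0.39 (5.95 and 6.80), and RAB8B at 0.31, near the low end (1.91 and 2.23). The 1 probeset of RAB8B with signal, 3597478, went the other way (-0.14), at 4.61 in MKN45 and 4.46 in MKN45P. RAB3A was at 0.07 (3.23 and 3.33). RAB3D, the Rab of zymogen granules in gastric chief cells, was lower at 6 of 7 probesets, with levels of 4.02 and 3.71 and a difference of -0.51 (-0.77 to -0.43). RAB26 (-0.09) and RAB37 (-0.13), also Rabs of secretory granules, and RAB13 (-0.10), which delivers junction proteins, were close to 0. The measured members of the RAB3 family therefore ran from -1.32 to 0.07 while both RAB27 genes were above 0.

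Endocytic Rab genes were mostly above 0. Of the 19 measured, 16 (84.2%) had a difference above 0, where 54.9% of all measured genes did, and the median was 0.32 (interquartile range over genes 0.09 to 0.48). None was 2-fold higher and RAB15 was 2-fold lower. All 7 Rabs of early endosomes were above 0, with a median of 0.51. RAB21, which moves integrins through early endosomes, was higher at all 11 probesets, with levels of 6.06 and 7.98 and a difference of 0.78 (0.47 to 1.17). The difference between its line medians, 1.92, was the larger measure. The RAB5 genes, which set the identity of early endosomes, were at 0.67 for RAB5B (0.25 to 1.06; 4.05 and 4.84), 0.55 for RAB5C (8.40 and 9.30) and 0.23 for RAB5A (5.95 and 7.19). RAB5A was higher at 12 of 13 probesets, and its probeset values diverged, with 2613414 at 5.95 and 7.29 and 2613393 at 9.48 and 9.67. RAB31 was at 0.51 (2.12 and 3.04) and its relative RAB22A at 0.18 (-0.11 to 0.39; 5.37 and 5.43). RAB35, which returns cargo to the surface, was at 0.10 (-0.05 to 0.61; 4.71 and 5.02).

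Rabs of recycling endosomes held the lowest endocytic member, RAB15, and had a median of 0.14. RAB25, an epithelial relative of RAB11 linked to integrin recycling, was higher at all 6 probesets, with levels of 9.43 and 10.06 and a difference of 0.35 (0.23 to 0.59). RAB11A, the general recycling Rab, was lower at 7 of 9 probesets (5.89 and 5.75), with a difference of -0.24 (-0.38 to -0.02). RAB11B was at 0.06, but below 0 with quantile normalization (-0.07). RAB14 was at 0.44 (0.11 to 1.13; 3.97 and 4.96), RAB17, another epithelial Rab, at 0.08 and RAB4A at 0.20. RAB4B had the widest spread of the measured Rab genes in this class, a median of 0.33 with a range of -0.31 to 1.89. Its probeset 3833820 read 3.52 in MKN45 and 6.39 in MKN45P, while 3833817 read 5.35 and 4.31.

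Of the 4 measured Rabs of late endosomes and lysosomes 3 were above 0. RAB7A, the main Rab of late endosomes, was higher at all 13 probesets, by a small amount, with levels of 7.89 and 8.45 and a difference of 0.32 (0.20 to 0.56). RAB12, which sends receptors to degradation, was at 0.78 with a wide range (0.13 to 1.30), with levels of 3.29 and 3.62 and 14 of 18 probesets higher, and RAB9A, which returns sorting receptors to the Golgi, at 0.44 (0.34 to 0.71; 3.90 and 4.34). RAB20, a phagosome Rab on chromosome 13, was at -0.16 (-0.40 to 0.40; 4.51 and 3.99), with 4 probesets higher and 6 lower.

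The gap between the route medians was smaller among genes with a level of 2.77 or more than over all measured members. The secretory median lay 0.27 below the endocytic median over all measured members. Signal on the array, which does not rank genes by RNA, was lower for secretory members, with a median over genes of 3.21 against 4.83 for endocytic ones. Among all measured genes, too, those with more signal lay higher in MKN45P. Over genes whose level was 2.77 or more, the medians were 0.23 for 14 secretory and 0.27 for 18 endocytic Rab genes, beside 0.12 for all 8081 genes of that level. There, 9 of the 14 secretory and 15 of the 18 endocytic members were above 0, where 62.8% of all such genes were. Level bands showed the same rise, with medians of all genes of -0.03 below 2.77, 0.09 from there to 5, 0.21 from 5 to 7 and 0.21 from 7 up, and of Rab genes of 0.04 (12 genes), 0.10 (25), 0.31 (8) and 0.35 (7). By route the order was not the same in every band. From 5 to 7 the median was 0.99 over 3 secretory and 0.18 over 3 endocytic Rab genes, and from 7 up it was 0.35 over both 2 secretory and 5 endocytic ones. From 2.77 to 5 it was 0.04 over 9 and 0.27 over 10, and below that -0.10 over 7, with RAB31 (0.51) the single endocytic gene. Over all levels and under the other settings, the secretory median stayed below the endocytic one, by 0.03 to 0.35, the smallest gap being with at least 10 probesets per gene. Leaving out 8 Rab genes that act on both routes (RAB8A, RAB8B, RAB10, RAB13, RAB11A, RAB11B, RAB14 and RAB25) gave medians of -0.03 and 0.32. The groups were not tested against each other, and the part that signal level has in the gap was not tested further.

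Rabs with other or several roles had a median of 0.07, with 9 of 12 above 0 and none past 2-fold. RAB38, which serves melanosomes and other lysosome-related organelles, was at 0.76 (-0.04 to 1.52; 5.46 and 6.15) and its relative RAB32 at 0.32. RAB18, of the endoplasmic reticulum and lipid droplets, was at 0.55 (0.01 to 1.21) over 19 probesets (2.91 and 3.31) and at 1.21 over its 10 with signal. RAB24, which acts in autophagy, was at 0.38. RAB36, a Rab of late endosome and Golgi positioning, was lower at all 13 probesets, with levels of 3.80 and 3.15 and a difference of -0.53 (-0.75 to -0.39). RAB34 was at -0.03 (-0.23 to 0.09; 5.26 and 5.40), RAB23 and RAB28, both tied to cilia, at 0.07 and 0.09, RAB19 at 0.02 and RAB39B at 0.07. RAB40B (0.06) and RAB40C (-0.01), which act in ubiquitin ligases, were near 0, RAB40C being above 0 with quantile normalization and loess.

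Paralogs differed unequally between the lines. Set side by side, the widest gaps between the highest and lowest measured members were 1.39 in the RAB3 family, 1.34 between RAB1A and RAB1B and 0.95 between RAB2A and RAB2B. The gap was 0.60 in the RAB6 family and 0.59 among RAB11A, RAB11B and RAB25. It was under 0.5 in the RAB5 family (0.45), RAB32 and RAB38 (0.44), RAB27A and RAB27B (0.40) and RAB22A and RAB31 (0.33). The smallest gaps were those of RAB4A and RAB4B (0.13), RAB8A and RAB8B (0.08) and RAB40B and RAB40C (0.07). RAB6C, the lowest RAB6 gene at -0.19, was at 0.98 at probeset 3340011, its 1 probeset with signal. That probeset and some of RAB6A have identifiers far from the others of their gene, so the RAB6 gap is uncertain. RAB8B was at -0.14 at its 1 probeset with signal. What signal shared between paralogs contributes to these gaps was not tested.

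**Figure D3:**
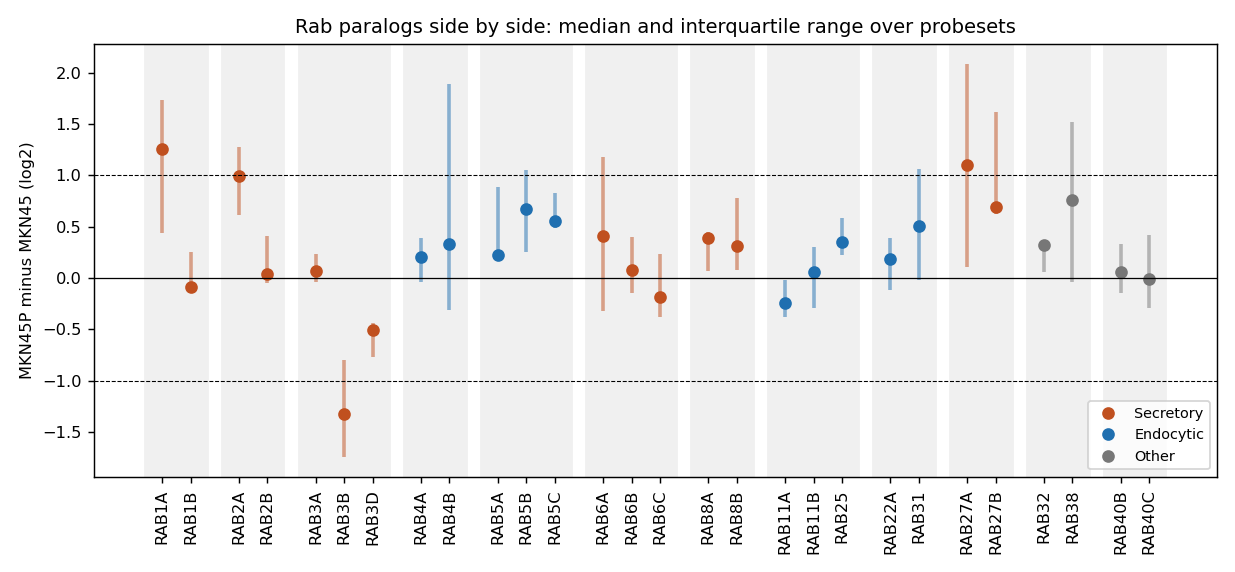
Differences between the lines (log2) for measured members of 12 groups of Rab paralogs, with the interquartile range over probesets as bars and grey blocks around each group. RAB1A and RAB1B, RAB2A and RAB2B, and the RAB3 genes stand apart within their groups, while RAB8A and RAB8B (0.39 and 0.31) lie together.

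In Rab genes with at least 8 probesets, single probesets rarely departed from their gene. The splicing index, a probeset's difference minus that of its gene, was taken for 301 probesets with signal in 35 Rab genes with at least 8 probesets. An index of 2 or more in either direction occurred at 2 of them (0.664%), where 1.69% of 128280 such probesets of all genes had one. Both were relatively higher in MKN45P, where 1.07% of all were. Probeset 3240136 of RAB18 read 3.39 in MKN45 and 6.22 in MKN45P (index 2.28), and 3778553 of RAB31 read 2.31 and 5.08 (2.26). Next came probeset 3625275 of RAB27A (1.97), 3381637 of RAB6A (1.95) and 3100228 of RAB2A (1.80). The lowest were 3100172 of RAB2A (-1.75), with 6.21 in MKN45 and 5.46 in MKN45P, 3778505 of RAB31 (-1.75), with 6.51 and 5.27, and 3777897 and 3777894 of RAB12 (-1.74 and -1.60), with 3775219 of RAB40B at -1.61. RAB31 and RAB2A thus held probesets of both signs among the extremes. RAB4B, with 7 probesets, was left out by the limit of 8. Its probesets 3833820 and 3833826 had indices of 2.54 and 2.19. With the gene taken over probesets with signal only, no Rab probeset reached an index of 2.

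The genes that load, switch and read Rab proteins were also mostly above 0. Of 123 measured genes in the 4 lists 7 were 2-fold higher, 1 was 2-fold lower and 86 (69.9%) were above 0, with a median of 0.17. Of all measured genes 4.58% were 2-fold higher, 1.2% were 2-fold lower and 54.9% were above 0. The 7 and 1 of 123 are near those shares. Using only probesets with signal gave 18 higher and 3 lower, and the difference between line medians 14 and 2. The shares of all genes given here are not for those settings. In prenylation and the membrane cycle, 6 of 8 listed genes were measured and none passed 2-fold. RABGGTB, the beta subunit of the enzyme that attaches the lipid anchor, was at 0.61 (3.13 and 5.00) and RABGGTA, its alpha subunit, at -0.53 (4.98 and 4.51). GDI2, which holds GDP-bound Rabs in the cytosol, was at 0.22 (6.41 and 6.84).

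Among 37 measured exchange factors none passed 2-fold, 27 were above 0 and the median was 0.23. The highest was DENND5A (0.88; 2.94 and 3.92), followed by GAPVD1 (0.85), which acts on RAB5 and was higher at 38 of 40 probesets, and ANKRD27 (0.82), which acts on RAB21. The lowest was DENND5B (-0.76; 4.76 and 3.57), and the RAB5 factors RIN1 and RIN3 were both at -0.43, followed by TRAPPC5 (-0.25) and DENND1C (-0.18). TRAPPC10, a subunit of the complex that activates Rabs at the Golgi, was at 0.76 and DENND4C at 0.78.

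Of 30 GTPase-activating proteins 2 were 2-fold higher and none 2-fold lower, with a median of 0.10, beside the same 4.58% and 1.2% of all genes. TBC1D8 was higher at all 27 probesets, with levels of 4.18 and 6.29 and a difference of 1.87 (1.24 to 2.41). RABGAP1 was higher at 28 of 30, with levels of 3.11 and 4.90 and a difference of 1.18 (0.58 to 1.60). TBC1D15, which acts on RAB7A, was at 0.90, RAB3GAP1, a subunit of the complex that switches off RAB3, at 0.54 and TBC1D20, which acts on RAB1, at 0.50. The 5 lowest lay close to 0, SGSM3 at -0.28, TBC1D7 at -0.19, TBC1D17 and TBC1D10C both at -0.18 and TBC1D30 at -0.10.

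Of 50 measured effectors 5 were 2-fold higher and 1 was 2-fold lower, with a median of 0.20, where 4.58% and 1.2% of all measured genes were. MICALL1, which works with RAB8 and recycling endosomes, was at 1.87 (0.78 to 2.21; 3.12 and 4.92). USO1, the tether that RAB1 recruits to early secretory vesicles, was at 1.25 (0.84 to 1.53; 4.05 and 5.31). RILPL1 was at 1.19 (2.33 and 3.27), RAB11FIP2, which links RAB11 to a myosin motor, at 1.03 (2.68 and 3.73), and ERC1 at 1.02 (3.46 and 4.64). MLPH, which links RAB27A to a myosin motor, was lower at 22 of 23 probesets, with levels of 5.27 and 4.02 and a difference of -1.30 (-1.79 to -0.36). After it the lowest was PLIN3, a lipid droplet protein that also binds RAB9, at -0.74.

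Effectors of RAB1, RAB27, RAB11 and RAB5 were picked from the list after values were seen, and other choices of members are possible. Of all 50 measured effectors 36 (72.0%) were above 0. The 4 genes taken as effectors of RAB1, USO1, GOLGA5 (0.85), GOLGA2 (0.58) and GORASP2 (0.53), lay from 0.53 to 1.25. Of 7 measured genes taken as effectors of RAB27, 3 were above 0. These ran from UNC13D (0.83; 2.44 and 3.47), the priming factor of granule release, and SYTL1 (0.32) to SYTL4 (0.02). MLPH, EXPH5 (-0.39), MYRIP (-0.06) and SYTL3 (-0.01) were below. RPH3AL (0.13), another gene of the list, was not placed in this set. Among 6 effectors of RAB11 3 were above 0, with RAB11FIP3 the lowest (-0.29), and among 6 of RAB5 4 were, from RABEP1 at 0.39 to RABEP2 at -0.31.

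**Figure D4:**
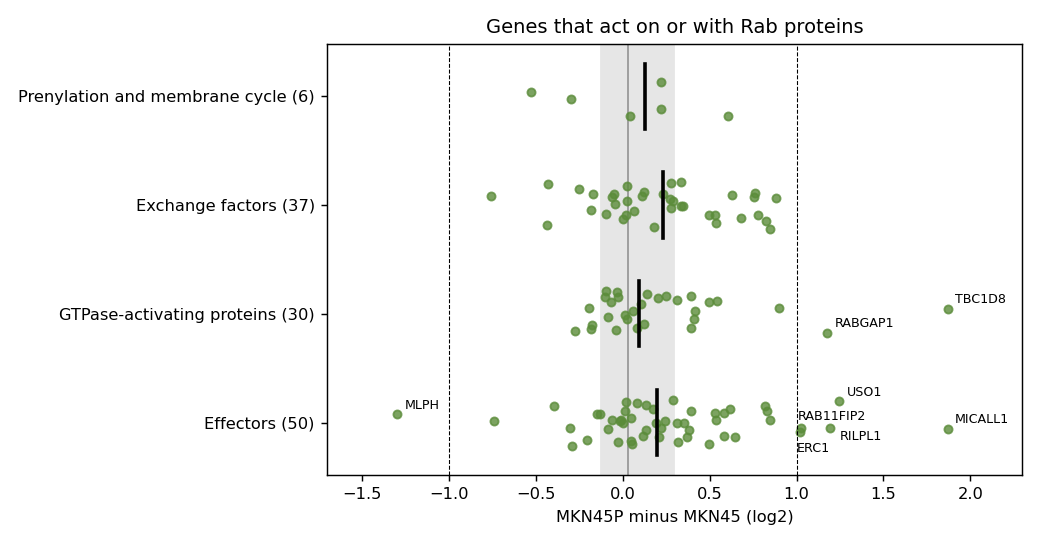
Differences between the lines (log2) for measured genes of the 4 lists that act on or with Rab proteins, 1 point per gene with vertical jitter; short black bars are list medians, the grey band the interquartile range of all measured genes (-0.13 to 0.30) and dashed lines 2-fold. Named genes are the 8 past 2-fold, of which MLPH alone is on the lower side.

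Measured Rab genes lie on 22 chromosomes, so their differences were set beside those of neighbouring genes, the 10 nearest measured genes on each side in the gene order of GRCh38.p14. RAB1A, on chromosome 2, lay beside genes that were mostly above 0 too, 16 of 20, with a median of 0.28 (0.11 to 0.83); 1 of them, GFPT1 at 2.35, exceeded it. RAB10, also on chromosome 2, had a neighbour median of 0.14, with 16 of 20 above 0. Neighbours of RAB27A on chromosome 15 had a median of 0.07, and 1 of 20, CCPG1 at 1.16, exceeded it. RAB3B on chromosome 1 went against its neighbours, whose median was 0.28 and of which the lowest was at -0.21. With 20 genes on each side, that median was -0.01. RAB15 on chromosome 14 had a neighbour median of -0.10, with FUT8 (-1.13) as low as itself and GPX2 at -0.84; with 20 genes on each side the median was 0.02.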

How the data were processed

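Total RNA of both lines, 1 array each, was measured with Affymetrix exon arrays. Values are log2 probeset values as deposited; the scale was read from their range (1.42 to 13.48). Per the submitters' processing notes, Partek and hg18 were used; how background, probe summary and normalization were handled is not given in the sources used here. Arrays give no read depth, and their number limits the precision.

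Symbols came from GEO's platform annotation; 3137 probesets with several symbols, 18 of which name a Rab gene, were left out, and 587978 were unnamed there. RefSeq tables (GRCh38.p14) gave current names, gene order and promoters. The Rab members, role classes and lists were chosen with earlier results of these data known. Every Rab gene is named; full values go to those past 2-fold and the 2 highest and 2 lowest of each role class. Paralogs, the 5 highest and 5 lowest genes of a pathway list (past 2-fold in the list of 8) and the 5 highest and 5 lowest splicing indices are named too. Other named genes and probesets were chosen after their values were seen. Differences passed 2-fold at 1 in log2 units; no test or p-value was possible. Alternatives were quantile normalization, loess, other summaries of probesets, other filters and role classes. Some listed genes were not analysed here. Python 3.11.15 was used with numpy 2.4.6, pandas 2.3.3, statsmodels 0.14.6 and matplotlib 3.10.9, and the gene step was tested on simulated data.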

Additional observations from a re-analysis of the deposited data

How the results depend on the processing

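RAB1A and RAB27A stayed 2-fold higher and RAB3B and RAB15 2-fold lower with quantile normalization, loess, the mean of probesets, the difference between line medians, no level filter, probesets with signal only and at least 1 probeset per gene. With at least 10 probesets, RAB1A and RAB3B were not measured, which left 1 Rab gene higher and 1 lower. The count of higher Rab genes was 8 with the difference between line medians, adding RAB2A, RAB4B, RAB5A, RAB10, RAB21 and RAB27B, and 5 with probesets with signal only, adding RAB4B, RAB18 and RAB27B. Rab pathway genes 2-fold higher and lower numbered 14 and 2 under the former and 18 and 3 under the latter, where 0 Rab probesets had a large splicing index. The shares of all genes past 2-fold given above are not for these settings. The secretory median was -0.0075 without the level filter and -0.03 without Rab genes of both routes, so its sign is not settled. It ranged from -0.03 to 0.21, and the endocytic median from 0.23 to 0.44. Of 384 recomputed values of the 52 measured Rab genes, 377 moved by less than the gene's interquartile range. RAB5A (1.24), RAB5C (0.89), RAB8A (0.85), RAB21 (1.92), RAB23 (0.64) and RAB33B (-1.28) moved by more with the difference between line medians, and RAB37 (-0.46) with probesets with signal only. The sign held in 41 of the 52 across the settings in which each gene was measured. Only 30 Rab genes were measured with at least 10 probesets, and 42 with probesets with signal only. The sign turned in at least 1 setting in RAB1B, RAB6B, RAB6C, RAB11B, RAB13, RAB17, RAB26, RAB34, RAB37, RAB40B and RAB40C. Their reported differences lay between -0.19 and 0.08. For RAB1A, RAB27A, RAB3B and RAB15, the genes for which it was tried, taking 5 or 20 neighbouring genes on each side moved no neighbour median by more than the interquartile range of the neighbours, but with 20 those of RAB3B (-0.01) and RAB15 (0.02) changed sign. No paired analysis was possible because each line has 1 array. Signal near the low end of the scale limits what can be seen for RAB8B, RAB13, RAB28, RAB30 and RAB39B. The cause of these changes was not tested.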
